A study of Mus musculus with 4 samples.

Results

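Astrocytes were 427 of 4239 filtered cell barcodes in 4 Drop-seq libraries of the mouse BNST (bed nucleus of the stria terminalis), part of the extended amygdala. The libraries came from tissue punches of male wildtype C57BL/6J mice kept on a reversed light cycle, with 6 mice pooled in each library and 24 mice in all. They form 1 group, no treatment or second genotype was compared, and the ages were not given in the sources used here. A library is therefore the replicate, and the spread between libraries holds mouse pool and Drop-seq run together. Drop-seq encloses single cells in droplets with barcoded beads and counts each captured messenger RNA once by its unique molecular identifier (UMI).

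The astrocytes were picked by a rule on UMIs of 15 genes. A barcode needed at least 400 detected genes and at most 10% mitochondrial UMIs. Fewer than 0.6% of its UMIs could come from the neuronal genes Snap25, Syt1, Stmn2, Snhg11 and Meg3. It needed at least 4 UMIs over the 6 astrocyte markers Aqp4, Gja1, Slc1a2, Slc1a3, Aldoc and Ntsr2, and at most 2 UMIs over the oligodendrocyte genes Mobp, Mog, Mag and Cldn11. The other filtered barcodes fell into 2489 neuron barcodes (at or above 0.6% for the neuronal genes), 914 oligodendrocytes, 150 oligodendrocyte precursor cells (OPCs, with at least 3 UMIs over Pdgfra, Cspg4, C1ql1, Cacng4, Neu4 and Gpr17) and 259 remaining barcodes. Oligodendrocytes and OPCs also lay under 0.6% for the neuronal genes. Oligodendrocytes needed at least 4 UMIs over the oligodendrocyte genes and at most 2 over the astrocyte markers. OPCs had fewer than 4 UMIs over the astrocyte markers and at most 2 over the oligodendrocyte genes.

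Astrocytes are glial cells that take up glutamate and potassium released by neurons, return glutamine to them, couple to one another through gap junctions, and wrap blood vessels with endfeet rich in the water channel aquaporin-4. They also make and secrete lipoproteins, extracellular matrix and signalling molecules, store glycogen, and differ in gene expression between brain regions. After injury many of them raise intermediate filament genes such as Gfap.

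The 4 libraries held 3600, 1800, 2400 and 2400 barcodes, of which 1300, 894, 852 and 1193 passed the filters. Astrocytes numbered 124, 88, 116 and 99, or 9.54% (exact binomial 95% interval 7.996 to 11.3), 9.84% (7.97 to 12.0), 13.6% (11.4 to 16.1) and 8.30% (6.80 to 10.01) of the filtered barcodes. The mean was 10.3% ± 2.29 (SD, n = 4), and library 3 had the highest value. Astrocyte barcodes were shallow, with a median of 835 UMIs (954, 814, 927.5 and 734 by library) and 548 genes, against 2113.5 UMIs for all other filtered barcodes. With a minimum of 600 genes the mean share was 5.13%, so the share rests on the depth filter. In all, the astrocytes carried 457972 UMIs. Intervals and detection limits given here cover counting error only.

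The 6 markers of the rule were a description of the choice and were not tested. Their levels are given as CPM, the UMIs of a gene per 1000000 UMIs summed over the astrocytes of a library. Slc1a2 and Slc1a3, the glutamate transporters GLT-1 and GLAST, stood at 3637, 6967, 8143 and 6396 CPM and at 3322, 5157, 6095 and 5843 CPM in libraries 1 to 4. Gja1, the gap junction protein connexin 43, stood at 1701, 2467, 3043 and 1905 CPM, and the glycolytic enzyme gene Aldoc at 2955, 3186, 2584 and 2763 CPM. The neurotensin receptor gene Ntsr2 was at 1082, 1549.5, 1182 and 1352 CPM and the water channel gene Aqp4 at 498, 1178, 969 and 553 CPM. Library 1 had the lowest CPM for each of these genes except Aldoc. In the share of astrocytes with a UMI at 500 UMIs per cell, library 1 was the lowest only for Slc1a2 (82.5%) and Slc1a3 (83.9%). Library 4 was lower for Aqp4 (23.5% against 28.6%) and Gja1 (58.2% against 66.3%), and library 3 for Ntsr2 (44.3% against 49.6%). Slc1a2 had a UMI in 96.3% of astrocytes and Aqp4 in 46.4%. Thinned to 500 UMIs per cell, the share with Slc1a2 was 89.4% ± 4.85 (SD, n = 4) in astrocytes, 21.7% ± 5.71 in OPCs, 4.84% in neuron barcodes and 0.840% in oligodendrocytes, with unthinned shares of 96.3%, 40%, 21.5% and 2.30%. The class rules required UMIs of the 6 markers in astrocytes and limited them in OPCs and oligodendrocytes. These shares therefore describe the choice of the classes and are no separate measurement of the difference.

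The markers of the rule made up at least 0.7% of UMIs in 394 of the 427 chosen barcodes and less in 33. The rule required UMIs of these markers, so their share describes the choice and is no separate test of the label. The share also depends on depth, because a fixed minimum of 4 UMIs is a larger percentage of a shallow barcode. Median depth was 1672 UMIs in the 33 and 815.5 in the 394. Across all members the markers made up a median of 2.03% of UMIs, from 0.080% to 4.26%. The 33 members under 0.7% (11, 4, 10 and 8 by library) held 21.1% of the astrocyte UMIs, and 35.8% of those of library 1. Among them, 22 had 3 or more UMIs of the OPC genes and 5 had 10 or more UMIs of neuronal markers outside the rule, 4 of these 5 in library 1. Just inside the marker threshold, 14 of 17 barcodes with exactly 4 marker UMIs carried 3 or more OPC gene UMIs, and just outside it 22 of 27 barcodes with 3 did. At the neuronal limit, 7 members lay between 0.5% and 0.6%, with a median of 4451 UMIs, and 3 barcodes lay just above. The counts of genes called, the early response genes and the main genes of the Agt split are given with and without these 33 barcodes. Other values of single genes are those of all 427 members unless stated. The 0.7% limit was set after the values were seen and leaves 394 astrocytes.

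**Figure D1:**
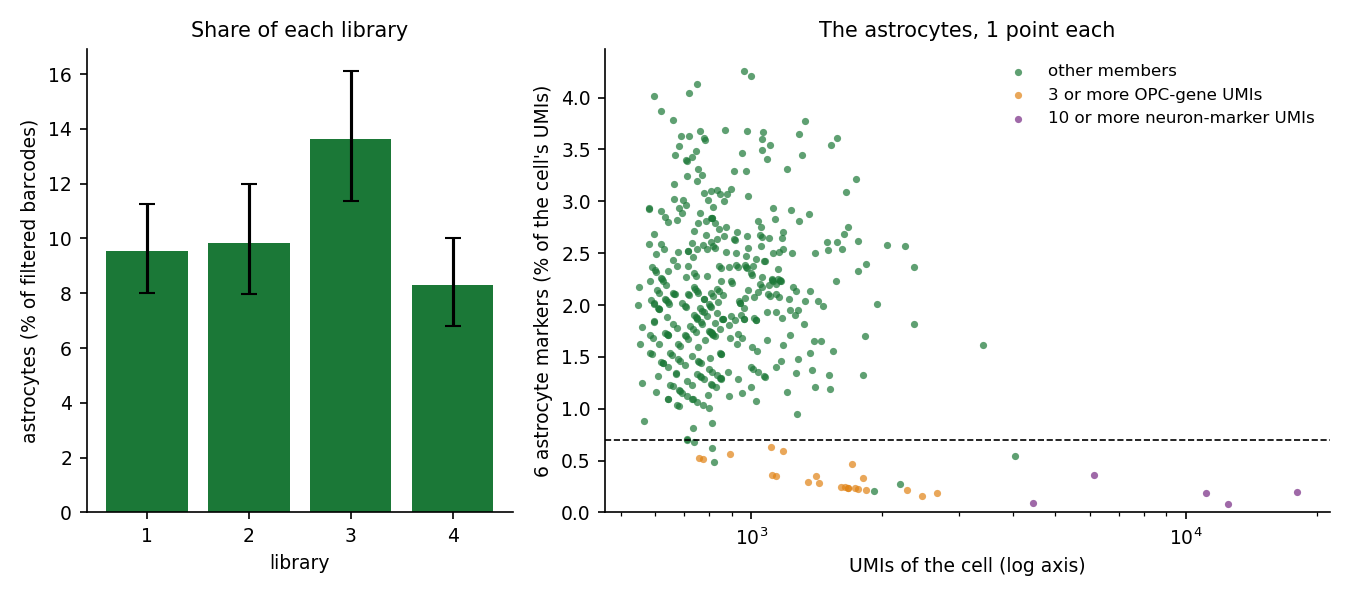
Left, share of filtered barcodes that met the astrocyte rule in each library, with 95% exact binomial error bars; library 3 is the highest at 13.6%. Right, each of the 427 members by its UMIs (log axis) and the percentage of them from the 6 markers, with a dashed line at 0.7%; members with 3 or more OPC gene UMIs (orange) and with 10 or more neuronal marker UMIs (purple) lie under the line.

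Markers of other cell types were present as well. A list of 12 neuronal markers summed to between 632 and 2869 CPM over the libraries, and to between 491 and 1431 CPM in the 394 astrocytes. It includes the 5 neuronal genes of the rule, so the rule itself limited this sum. All 7 OPC markers were detected at 657 to 1547 CPM together, against 159 to 232 CPM in the 394, where Pdgfra was at 0. Oligodendrocyte markers summed to between 613 and 1128 CPM with Opalin at 0, and they include the 4 oligodendrocyte genes that the rule limited. Markers of committed OPCs summed to between 281 and 620 CPM. The microglial list held 6 UMIs, with C1qb, C1qc and P2ry12 at 0, and the pericyte list 73 UMIs, with Kcnj8 and Higd1b at 0, of which 5 lay in the 394. The endothelial list held 29 UMIs with Ly6c1 at 0, and the fibroblast list 54 UMIs with no member at 0. Library levels ran from 8.50 to 395 CPM for the pericyte list and from 35.3 to 241 CPM for the fibroblast list. For the pericyte list, and likewise for the fibroblast list, 1 astrocyte held 3 or more UMIs, and 0 of the 394 did. Ependymal markers held 56 UMIs with Tmem212 and Mia at 0, choroid plexus and tanycyte markers 9 UMIs with Ttr, Folr1 and Kl at 0, and neural stem and proliferation markers 87 UMIs with Dlx2 at 0. The part of these other transcripts in the levels below was not tested beyond the values in the 394. A doublet caller, Scrublet, marked 1 astrocyte among 58 of all filtered barcodes, and no astrocyte barcode sequence was shared between libraries.

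Summed astrocyte UMIs were set against the sums of all other filtered barcodes, of oligodendrocytes and of OPCs in the same library. The test was edgeR's quasi-likelihood test with the library as a block and Benjamini-Hochberg adjustment over all genes tested, and a gene was called at an adjusted p under 0.05. The classes were divided by genes measured in the same cells, so genes that travel with the markers had to differ, and the adjusted p-values describe classes so divided; the genes of the rule are left out of the counts in these 3 comparisons. Against all other barcodes, 4365 of 10258 genes were called (42.6%), 1798 higher (17.5%) and 2567 lower (25%) in astrocytes. Without the 33 members, 49.8% of genes were called, 18.5% higher and 31.3% lower. Against oligodendrocytes, 2155 of 4396 genes were called (49%), 26.6% higher and 22.5% lower, and without the 33 members 56.2%, with 28.1% in each direction. Against OPCs, 560 of 1716 genes were called (32.6%), 18.2% higher and 14.5% lower, and without the 33 members 46.8%, 25.2% higher and 21.7% lower. The median log2 fold change over all genes tested was -0.24, 0.06 and -0.03 in the 3 comparisons, and the list medians below are to be read beside these. The list counts below are to be read beside the shares of all genes called. UMIs were counted from the 3′ ends of transcripts, so levels are not compared between genes. Without the 33 members the number of genes called higher or lower in a list below moved by at most 2 in each of the 3 comparisons, except for the early and heat shock genes. Genes described within a list include its largest changes by a fixed rule, and others that were chosen for their role after their values were seen. The strand used in counting was not given in the sources used here. Slc1a2, Mog, Meg3, C1ql1, Cacng4, Gpr17, P2ry12, Sparcl1, Slc7a10, Slc6a9, Slc2a1, Phkg1, Pfkm, Gpi1, Tpi1, Gss, Sod1, Fgf1, Mertk, Id4, S100b, Gfap, Dio2, Thra, Nr3c2, Zic1, Six3, Pla2g7, Plcd4, Matn4, Shc4, Slc25a18, Gabarapl1, Plcb1 and Lrig1 overlap a gene on the other strand. Whether reads of such pairs were kept apart is not known.

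Pan-astrocyte genes outside the rule were higher throughout against all other barcodes. All 45 tested members were higher in astrocytes than in all other barcodes, with a median log2 fold change of 5.77. Against oligodendrocytes 42 of 45 were higher (median 6.22), and against OPCs 36 of 40 (median 3.70). None was lower in any of the 3 comparisons. Gjb6, which encodes the second astrocytic connexin, connexin 30, stood at 561, 694, 604 and 576 CPM in libraries 1 to 4. In all other barcodes it lay between 0.410 and 2.43 CPM, so every astrocyte library lay far above every comparison library (log2 fold change 8.995, SE 0.32, adjusted p = 3.32e-28). No Gjb6 UMI was found in oligodendrocytes or OPCs, which makes the astrocyte level at least 311-fold and at least 41.8-fold higher, against a floor of 3 counts over the class. The gene spans 57123303 to 57133611 on the minus strand of chromosome 14 (GRCm38). Aldh1l1, a folate enzyme used as an astrocyte marker, was at 103, 260.3, 272 and 282 CPM, and library 1 was the lowest (log2 fold change 7.18, SE 0.37, adjusted p = 3.39e-22). Etnppl, encoding ethanolamine-phosphate phospho-lyase, was at 452, 409, 578 and 447 CPM (log2 fold change 8.43, SE 0.31, adjusted p = 5.82e-28), and OPCs had no UMI of it (at least 33.2-fold).

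The metallothioneins are small cysteine-rich proteins that bind zinc and copper. The genes Mt1 and Mt2 respond to metals through metal response elements bound by the factor MTF-1. Mt1, Mt2 and Mt3 lie in 1 cluster on chromosome 8, and the windows from 250 bases before to 50 bases after each RefSeq start (GRCm38.p6, plus strand) are shown because all 3 genes were higher in astrocytes in every comparison. Capitals mark the metal response element cores TGCACNC and TGCGCNC, read on both strands, where N is any base.
Mt1, chr8:94178839-94179138: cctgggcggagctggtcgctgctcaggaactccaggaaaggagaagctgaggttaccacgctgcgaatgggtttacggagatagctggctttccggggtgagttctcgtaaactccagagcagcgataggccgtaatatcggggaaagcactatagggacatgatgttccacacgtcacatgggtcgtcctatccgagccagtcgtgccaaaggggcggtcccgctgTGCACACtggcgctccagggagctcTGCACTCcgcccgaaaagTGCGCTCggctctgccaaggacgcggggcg
Mt2, chr8:94172368-94172667: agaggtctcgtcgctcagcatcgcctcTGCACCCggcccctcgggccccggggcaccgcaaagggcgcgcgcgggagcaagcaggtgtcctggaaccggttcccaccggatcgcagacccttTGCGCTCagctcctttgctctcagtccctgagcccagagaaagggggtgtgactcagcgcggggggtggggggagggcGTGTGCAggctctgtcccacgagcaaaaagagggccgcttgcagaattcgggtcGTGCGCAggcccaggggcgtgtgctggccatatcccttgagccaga
Mt3, chr8:94152357-94152656: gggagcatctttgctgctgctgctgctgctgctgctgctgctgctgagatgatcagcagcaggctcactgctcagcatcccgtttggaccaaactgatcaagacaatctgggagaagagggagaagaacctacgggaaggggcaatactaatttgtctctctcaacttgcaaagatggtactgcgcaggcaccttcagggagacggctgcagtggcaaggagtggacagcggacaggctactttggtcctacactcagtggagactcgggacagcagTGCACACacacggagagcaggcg
The Mt2 window held 4 cores, the Mt1 window 3 and the Mt3 window 1. Among 32851 RefSeq promoter windows of the same length, 25.7% held at least 1 core, 7.11% at least 2, 1.97% at least 3 and 0.517% at least 4. A match describes the letters and not a bound site.

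The levels of the 3 metallothionein genes varied little between libraries. Mt1 stood at 2434, 3161, 2287 and 2775 CPM in astrocytes, and at 123, 133, 115 and 153 CPM in all other barcodes of the same libraries (log2 fold change 4.37, SE 0.23, adjusted p = 3.64e-22). Mt2 stood at 968, 1041, 808 and 964 CPM against 10.9, 13.1, 11.7 and 21.3 CPM (log2 fold change 6.12, SE 0.26, adjusted p = 1.81e-25). For Mt3, the brain isoform also made by neurons, the levels were 286, 359, 221 and 294 CPM against 69.4, 59.9, 55 and 73.4 CPM (log2 fold change 2.176, SE 0.22, adjusted p = 1.15e-11). No astrocyte library overlapped a comparison library for any of the 3 genes. Against oligodendrocytes the log2 fold changes were 2.88 (SE 0.20) for Mt1, 6.22 (SE 0.28) for Mt2 and 5.44 (SE 0.40) for Mt3. Against OPCs they were 4.14 (SE 0.27), 4.48 (SE 0.35) and 2.13 (SE 0.35); all 6 had adjusted p-values at or below 2.95e-05. Of the list of metallothionein and oxidative defence genes, 11 of 17 were higher and 4 lower than in all other barcodes (median 1.92). Among all genes tested 17.5% were higher and 25% lower, so the list was lower about as often as all genes. The lower ones, Gpx1, Gpx4, Sod1 and Gss, encode enzymes of peroxide, superoxide and glutathione metabolism, and the glutathione transferase gene Gstm1 was among the higher ones at 722, 1302, 739.5 and 1058 CPM (log2 fold change 4.48, SE 0.24, adjusted p = 1.67e-21). Against oligodendrocytes 10 of 15 were higher and 1 lower, Gss, and against OPCs 7 of 8 were higher with Sod1 not called.

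Among genes of glutamate and GABA uptake and recycling, the GABA transporter gene Slc6a11 and the glutamine synthetase gene Glul were higher in astrocytes, and some carriers and enzymes were lower. Against all other barcodes 12 of 18 were higher and 4 lower (median 2.44), beside 17.5% and 25% of all genes tested. The list was thus lower about as often as all genes. The lower ones were Slc38a1, a glutamine carrier of neurons, the aspartate aminotransferase genes Got1 and Got2, and the mitochondrial glutamate carrier gene Slc25a22. Glul, which encodes glutamine synthetase, stood at 1684, 2368, 2729 and 2845 CPM in astrocytes and 124, 144, 344 and 226 CPM in all other barcodes (log2 fold change 3.63, SE 0.23, adjusted p = 6.02e-19). Oligodendrocytes also carried Glul, at 659, 702.6, 1288 and 1134 CPM, and the difference from them was smaller (log2 fold change 1.32, SE 0.18, adjusted p = 2.67e-07). In OPCs Glul was at 68.9 ± 23.1 CPM (log2 fold change 5.31, SE 0.30, adjusted p = 1.15e-11).

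Uptake carriers were part of the same profile. Slc6a11, which encodes the GABA transporter GAT3, stood at 286, 397, 1079.5 and 682 CPM, with libraries 3 and 4 above libraries 1 and 2 and all 4 above the 8.59, 6.15, 18 and 10.7 CPM of the other barcodes (log2 fold change 5.74, SE 0.25, adjusted p = 5.64e-25). Oligodendrocytes held 2 Slc6a11 UMIs, a ratio of 454 (95% counting interval 125 to 3769.8). OPCs stood at 24.1 ± 20.8 CPM (log2 fold change 4.997, SE 0.45, adjusted p = 7.97e-09). Slc7a10, a carrier of serine and other small neutral amino acids, stood at 344, 632, 587 and 529 CPM (log2 fold change 7.70, SE 0.28, adjusted p = 5.82e-28), and Slc7a11, the cystine and glutamate exchanger, at 315, 707, 604 and 529 CPM (log2 fold change 7.36, SE 0.29, adjusted p = 1.07e-26). Slc7a11 had no UMI in OPCs, so it was at least 34.8-fold higher in astrocytes. Against oligodendrocytes 10 of 11 genes of the list were higher and none lower, with the glycine transporter gene Slc6a9 not called. Against OPCs 7 of 9 were higher, Gpt2 was lower and the glutamine carrier gene Slc38a3 was not called.

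Ion, water and gap junction genes were higher in 17 of 20 cases against all other barcodes (median 3.11), 14 of 18 against oligodendrocytes (median 5.42) and 10 of 14 against OPCs (median 2.60). Slc4a4, the sodium bicarbonate cotransporter, stood at 1684, 2454, 3035 and 1693 CPM against 13.2, 15.2, 34.1 and 19.3 CPM in all other barcodes (log2 fold change 6.83, SE 0.27, adjusted p = 4.02e-27). Oligodendrocytes held 2 Slc4a4 UMIs, a ratio of 1689 (95% counting interval 466 to 13967). Atp1b2, a beta subunit gene of the sodium pump, was at 493, 657, 833 and 988 CPM, with library 4 the highest and library 1 the lowest (log2 fold change 3.36, SE 0.22, adjusted p = 5.55e-18). Mlc1, an endfoot membrane protein gene, was at 584, 855, 569.5 and 576 CPM (log2 fold change 7.39, SE 0.29, adjusted p = 3.65e-27).

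Kcnj10, the gene of the inward rectifier potassium channel Kir4.1, did not pass the test against either of the other glial classes. It stood at 200.5, 273, 485 and 329 CPM in astrocytes, 384, 411, 418 and 403 CPM in oligodendrocytes and 206, 263, 458 and 381 CPM in OPCs, and these ranges overlapped (log2 fold change -0.44, SE 0.22, adjusted p = 0.095 against oligodendrocytes, and log2 fold change 0.23, SE 0.26, adjusted p = 0.55 against OPCs). It was higher than in all other barcodes, at 322 ± 121 against 68 ± 23 CPM (log2 fold change 2.24, SE 0.22, adjusted p = 3.25e-12). The chloride cotransporter gene Slc12a2 and the carbonic anhydrase gene Car2 were lower in astrocytes than in all other barcodes (-2.26 and -1.55) and than in oligodendrocytes (-4.78 and -4.41). Car2 was higher than in OPCs, which held 2 Car2 UMIs, a ratio of 23.1 (95% counting interval 6.23 to 193).

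**Figure D2:**
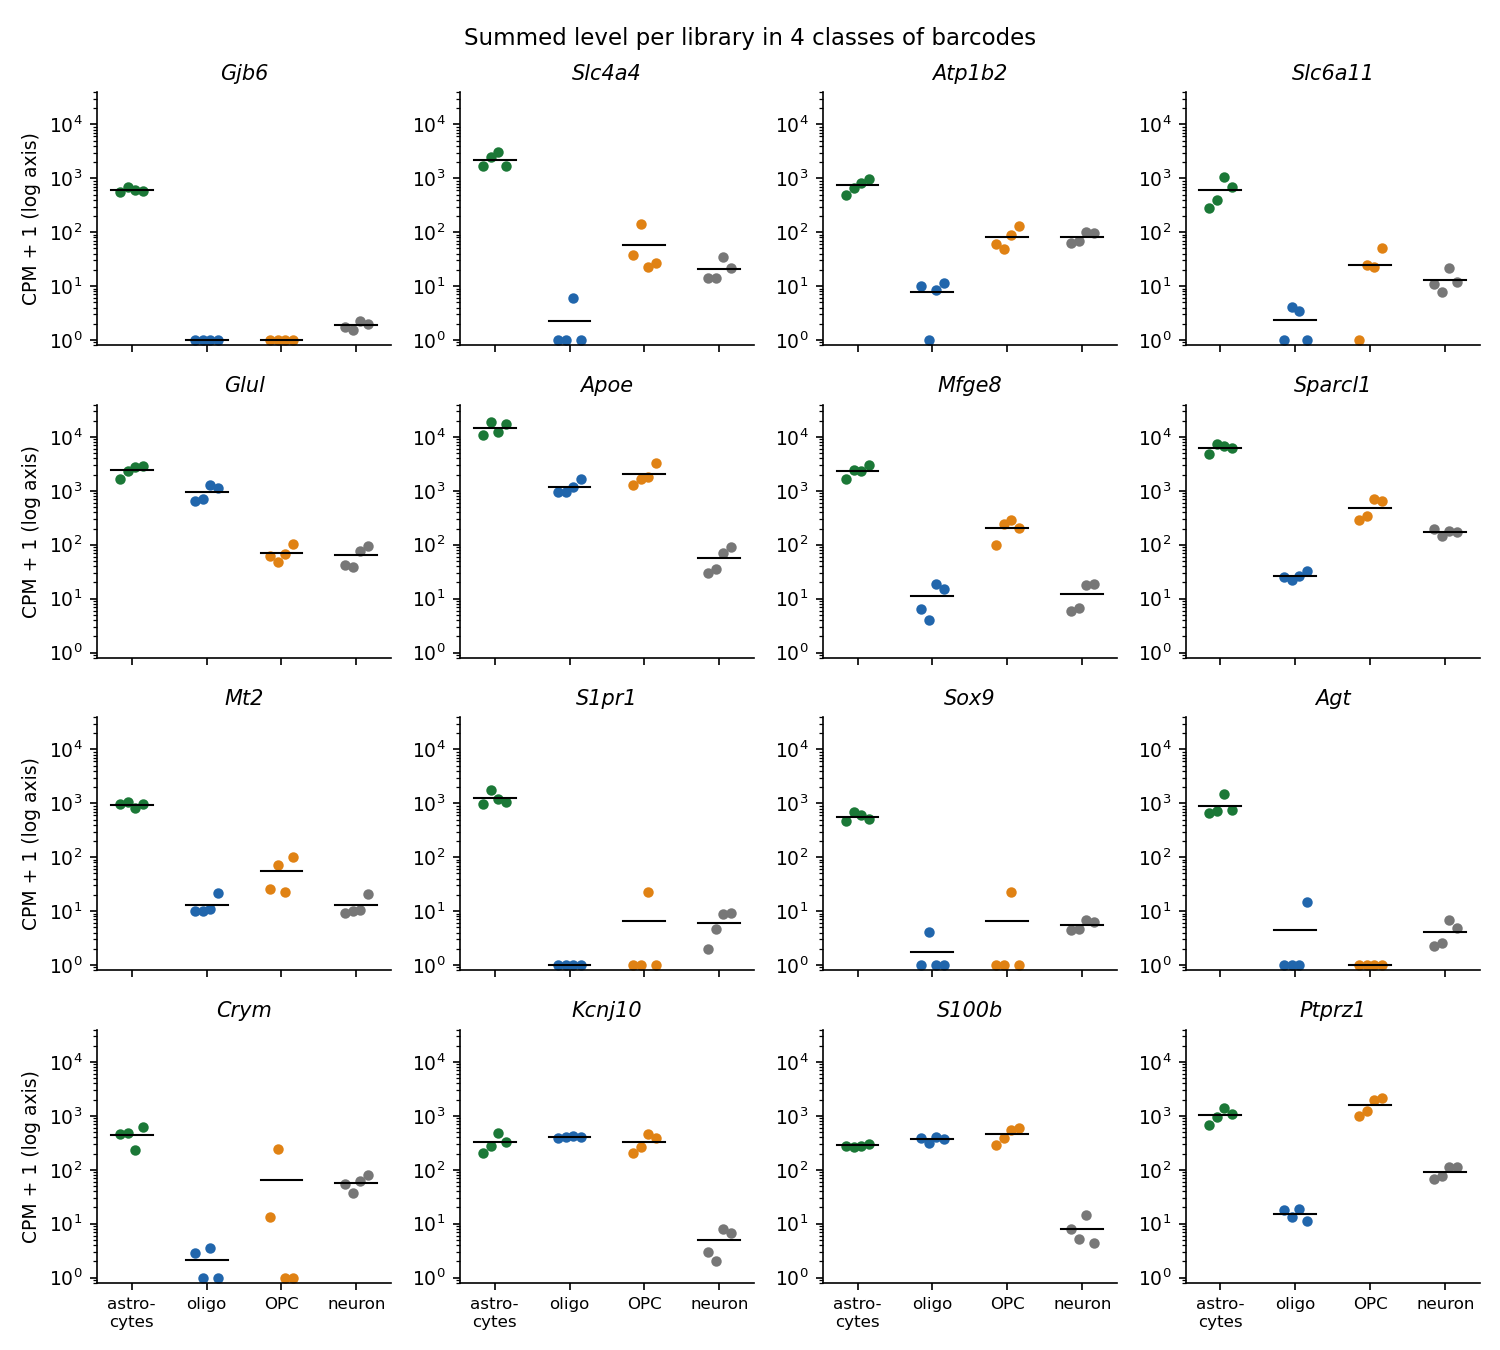
CPM plus 1 (log axis) of 16 genes in astrocytes, oligodendrocytes, OPCs and neuron barcodes; each point is 1 of the 4 libraries and the line is their mean. Gjb6, Slc4a4, S1pr1 and Sox9 lie far above the other classes in every astrocyte library, while Kcnj10, S100b and Ptprz1 overlap with at least 1 other glial class.

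Lipid genes that were higher included the lipoprotein genes Apoe and Clu. Of 28 genes, 21 were higher and 2 lower than in all other barcodes (median 2.83). Apoe, apolipoprotein E, stood at 11031, 18743, 12129.9 and 17365 CPM in astrocytes, so it alone gave over 1% of the UMIs in each library, against 196, 211, 368 and 365 CPM in the other barcodes (log2 fold change 5.75, SE 0.24, adjusted p = 2.62e-26). Oligodendrocytes held 1190.1 ± 325 CPM and OPCs 2037 ± 908 CPM of Apoe (3.58 and 3.17 on the log2 scale). Clu, or clusterin, stood at 2314, 3669, 3111 and 4291 CPM (log2 fold change 3.38, SE 0.22, adjusted p = 2.22e-18), with 321 ± 45.1 CPM in the other barcodes. Abca1, which loads cholesterol onto apolipoprotein E, was at 160.4, 211, 468 and 317 CPM (log2 fold change 4.18, SE 0.25, adjusted p = 1.26e-19). The related sterol exporter gene Abcg1 was lower in astrocytes in all 3 comparisons, with log2 fold changes of -1.63 (SE 0.38), -2.89 (SE 0.36) and -2.46 (SE 0.45). The cytochrome P450 gene Cyp4f15 held 74 UMIs in astrocytes and 3 in all other barcodes, a ratio of 636 (95% counting interval 209 to 3152).

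Against oligodendrocytes, which make the lipid of myelin, 12 of 23 lipid genes were higher in astrocytes and 4 lower, Abcg1, Apod, Scd1 and Scd2. Scd2, a stearoyl-CoA desaturase gene, stood at 974, 1835, 2117 and 2175 CPM in astrocytes and 2477, 3051, 5411 and 4257 CPM in oligodendrocytes (log2 fold change -1.16, SE 0.18, adjusted p = 2.93e-06). It was higher than in OPCs (log2 fold change 1.503, SE 0.22, adjusted p = 5.96e-06). The sterol synthesis genes Hmgcs1 and Sqle were not called against all other barcodes. Against OPCs 9 of 15 lipid genes were higher and 1 lower, Abcg1.

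Of the glucose, glycogen and lactate genes, 14 of 23 were higher and 6 lower than in all other barcodes (median 1.35). Of all genes tested 17.5% were higher and 25% lower, so genes of this list were lower about as often as all genes. The higher ones included regulators of glycogen breakdown and storage. Phkg1, a catalytic subunit of phosphorylase kinase, stood at 275, 285, 366 and 199.9 CPM (log2 fold change 8.09, SE 0.35, adjusted p = 1.81e-25), and its regulatory partner gene Phka1 at 149, 372, 187 and 153 CPM (log2 fold change 4.46, SE 0.30, adjusted p = 5.89e-18). Ppp1r3c, which targets protein phosphatase 1 to glycogen, stood at 91.6, 99.2, 145 and 106 CPM (log2 fold change 5.23, SE 0.39, adjusted p = 5.63e-16), and the glycogen phosphorylase gene Pygb was higher by 2.78 (SE 0.28) on the log2 scale. The lower ones, Ldha, Aldoa, Eno2, Gpi1, Pkm and Tpi1, encode enzymes of glycolysis and lactate formation, with Eno2, the neuronal enolase, at -3.21 (SE 0.31). Ldhb, the other lactate dehydrogenase subunit, was higher at 613, 756, 706 and 1058 CPM (log2 fold change 1.08, SE 0.22, adjusted p = 5.33e-05). Pfkm, a phosphofructokinase gene of glycolysis, was higher in all 3 comparisons, with log2 fold changes of 1.06 (SE 0.23), 6.10 (SE 0.44) and 1.61 (SE 0.40). Against the other glia none of these genes was lower. Higher than in oligodendrocytes were 10 of 15, Eno2 among them, and 8 in the 394, where Eno2 was under the count filter. Higher than in OPCs were 5 of 7, and 4 in the 394. The glucose transporter gene Slc2a1, at 88.5 ± 41.3 CPM, was higher than in all other barcodes (log2 fold change 1.35, SE 0.34, adjusted p = 0.001) and had a log2 fold change of 0.09 (SE 0.32) against oligodendrocytes, adjusted p = 0.85.

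Secreted and matrix genes were higher in 26 of 29 cases against all other barcodes (median 3.86), 21 of 25 against oligodendrocytes (median 5.96) and 16 of 21 against OPCs (median 2.70). Sparcl1, a matrix protein with a role in synapse formation, stood at 4731, 7499.6, 6928 and 6184 CPM against 209, 160.3, 190.3 and 177 CPM (log2 fold change 5.12, SE 0.23, adjusted p = 1.71e-24). Mfge8, a bridging protein of phagocytosis, stood at 1644, 2467, 2295 and 3080.4 CPM against 10.1, 19.3, 31.2 and 26 CPM (log2 fold change 6.88, SE 0.27, adjusted p = 4.02e-27). OPCs carried 206 ± 79.6 CPM of Mfge8 and oligodendrocytes 9.99 ± 6.85 CPM, both below every astrocyte library (log2 fold change 3.81, SE 0.26, adjusted p = 1.08e-10 against OPCs). Mertk, a receptor that binds such bridging proteins, was at 332, 632, 451 and 682 CPM (log2 fold change 6.71, SE 0.26, adjusted p = 3.60e-27). Cxcl14, a chemokine gene, stood at 435, 583, 587 and 376 CPM with no UMI in oligodendrocytes (at least 254-fold higher). Itih3, a hyaluronan-binding serum protein gene, stood at 452, 434, 935 and 576 CPM; oligodendrocytes carried it at 105 ± 18.2 CPM (log2 fold change 2.39, SE 0.24, adjusted p = 6.41e-10), and OPCs had no UMI (at least 41.6-fold higher). With all members, the genes of the list that were lower were Olfm1, against all other barcodes and OPCs, and Fgf1, against oligodendrocytes. In the 394 Fgf1 was not called (-0.48, adjusted p = 0.13), and 2 genes were lower than in all other barcodes.

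Agt encodes angiotensinogen, the precursor of angiotensin, and is made in the brain mainly by astrocytes. It stood at 653, 731, 1471 and 764 CPM in libraries 1 to 4 and was highest in library 3. All other barcodes held 1.68, 1.23, 6.33 and 5.13 CPM (log2 fold change 8.06, SE 0.31, adjusted p = 2.23e-27), and OPCs had no UMI (at least 62.6-fold higher). The gene spans 124556534 to 124569706 on the minus strand of chromosome 8.

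Receptor genes were more mixed. Against all other barcodes 22 of 33 were higher and 4 lower (median 1.82), against oligodendrocytes 15 of 21 were higher and 1 lower (median 5.38), and against OPCs 13 of 17 were higher and 1 lower (median 1.83). S1pr1, a sphingosine 1-phosphate receptor, stood at 968, 1748, 1182 and 1046 CPM against 7.96, 4.92, 10.7 and 9.07 CPM (log2 fold change 7.21, SE 0.29, adjusted p = 1.92e-26). It had no UMI in oligodendrocytes (at least 610.1-fold higher in astrocytes) and 1 UMI in OPCs, a ratio of 246 (95% counting interval 44 to 9735). Ednrb, the endothelin B receptor, stood at 1849.9, 3409, 2618 and 1881 CPM (log2 fold change 7.02, SE 0.27, adjusted p = 3.65e-27), and the fibroblast growth factor receptor gene Fgfr3 at 361, 471, 1037 and 858 CPM, with libraries 3 and 4 the highest (log2 fold change 7.26, SE 0.28, adjusted p = 2.23e-27). Grm3, the glutamate receptor mGluR3, stood at 160.4, 309.9, 238 and 165 CPM (log2 fold change 2.74, SE 0.25, adjusted p = 4.72e-13), while Grm5, encoding mGluR5, was lower than in all other barcodes at -2.10 (SE 0.30). Of the GABA B receptor subunits, Gabbr2 was higher at 195, 161, 399.5 and 270.4 CPM (log2 fold change 1.51, SE 0.23, adjusted p = 2.74e-07), and Gabbr1 had a log2 fold change of 0.15 (SE 0.23), adjusted p = 0.63. Ptprz1, a receptor phosphatase of glial progenitors, stood at 682, 942, 1386 and 1082 CPM in astrocytes and 995, 1219.5, 1963 and 2161 CPM in OPCs, with overlapping ranges (log2 fold change -0.35, SE 0.20, adjusted p = 0.2). Adcyap1r1, the receptor of the neuropeptide PACAP, stood at 212, 409, 468 and 259 CPM against 52.6, 59, 79.3 and 76.5 CPM (log2 fold change 2.32, SE 0.22, adjusted p = 2.06e-12).

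Glial and progenitor transcription factors were higher in 31 of 38 cases against all other barcodes (median 2.27), with the oligodendrocyte lineage gene Olig2 among them, and 1 was lower, or 3 in the 394. Sox9, which specifies and maintains astrocytes, stood at 464, 682, 604 and 517 CPM against 2.93, 3.28, 5.84 and 4.73 CPM (log2 fold change 7.10, SE 0.27, adjusted p = 1.22e-27). It had 1 UMI in oligodendrocytes and 1 in OPCs, with a ratio of 854 (95% counting interval 152 to 33862) and a ratio of 115 (95% counting interval 20.4 to 4551). Dbx2, a homeobox gene, was at 178, 198, 162 and 176 CPM (log2 fold change 6.86, SE 0.39, adjusted p = 1.87e-20), and Id4, an inhibitor of basic helix-loop-helix factors, at 195, 397, 366 and 411 CPM (log2 fold change 2.14, SE 0.21, adjusted p = 7.07e-12). Sox2, shared by glia and progenitors, stood at 355, 595, 697 and 529 CPM and was higher than in oligodendrocytes (2.74) and in OPCs (log2 fold change 1.18, SE 0.26, adjusted p = 8.90e-04). Hes5, a Notch target, stood at 286, 397, 238 and 376 CPM and was higher than in OPCs in 3 of 4 libraries (log2 fold change 0.93, SE 0.31, adjusted p = 0.024). The oligodendrocyte lineage factors Olig1, Olig2 and Sox10 were lower than in OPCs, with log2 fold changes of -2.58 (SE 0.23), -2.23 (SE 0.27) and -2.79 (SE 0.36). Olig1 stood at 223, 186, 417 and 353 CPM in the 427 barcodes and at 90.9 ± 8.66 CPM (SD, n = 4) in the 394.

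Among factors that mark brain regions, Lhx2 was higher and Zic1 lower than in all other barcodes. Lhx2, a forebrain homeobox gene, had a log2 fold change of 5.05 (SE 0.47), adjusted p = 6.18e-13. Zic1 stood at 17.2, 0, 8.5 and 35.3 CPM and was lower than in all other barcodes (log2 fold change -2.01, SE 0.49, adjusted p = 7.22e-04). Nkx2-1 and Six3 had log2 fold changes of 0.58 (SE 0.57) and 0.03 (SE 0.31), with adjusted p-values of 0.44 and 0.94. Of all regional astrocyte genes tested, 16 of 22 were higher and 2 lower than in all other barcodes (median 3.47), 12 of 13 were higher than in oligodendrocytes (median 7.16, or 5.31 with genes at 0 placed at their bounds), and 8 of 10 were higher than in OPCs (median 3.58).

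**Figure D3:**
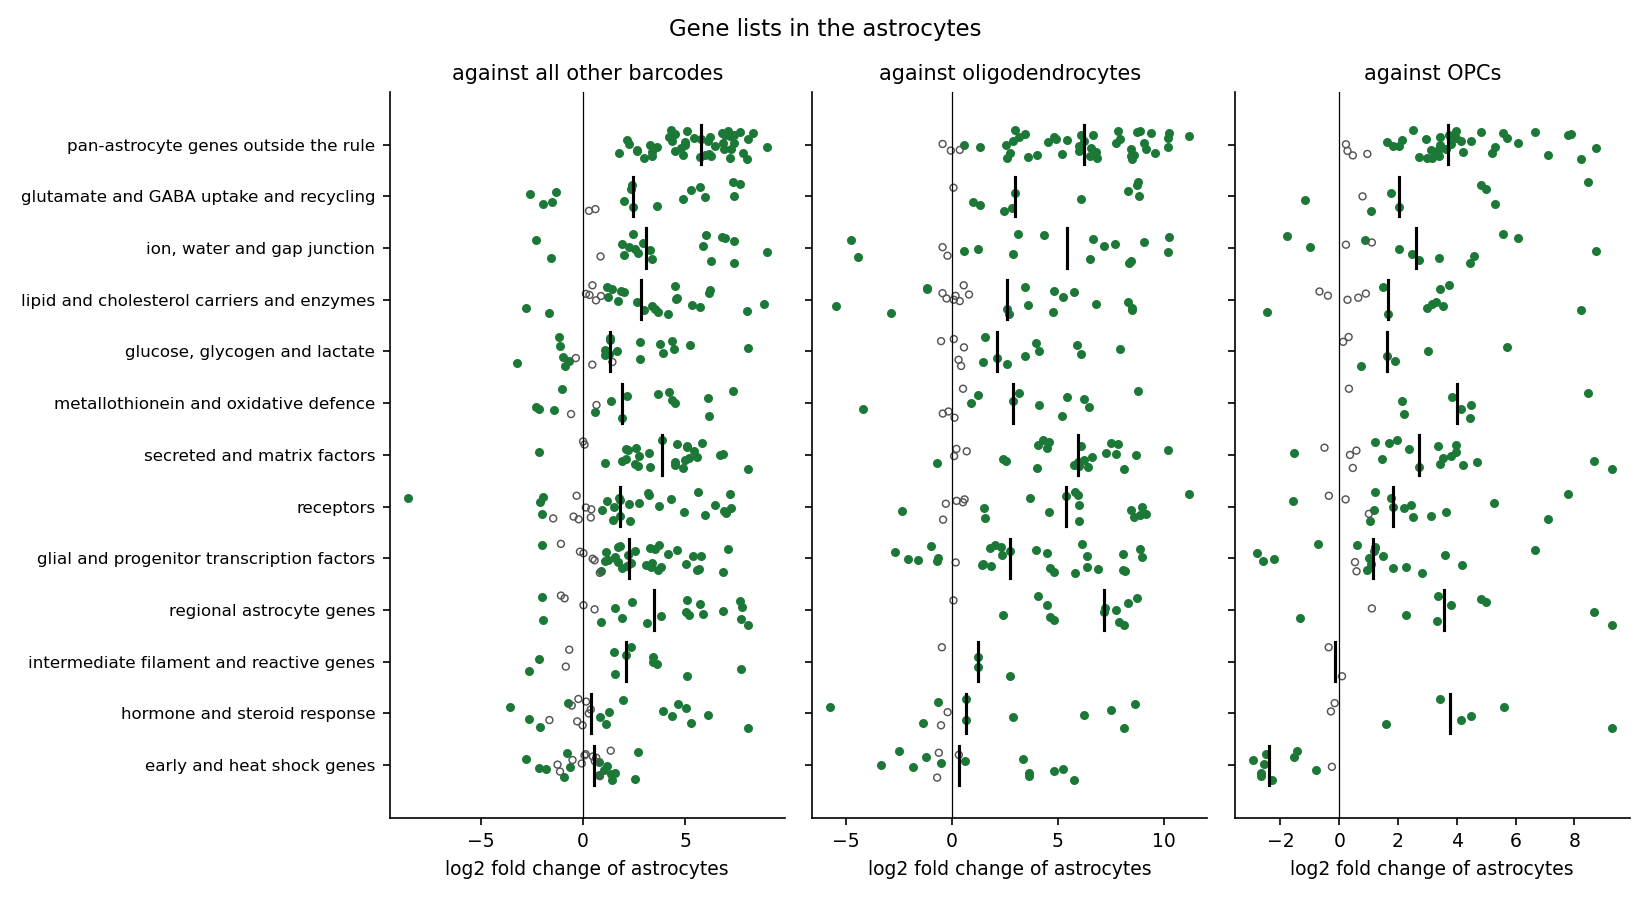
Log2 fold change of each tested gene of 13 lists in the comparisons of astrocytes with all other barcodes, oligodendrocytes and OPCs; filled points passed an adjusted p of 0.05, open points did not, and black lines are medians. Fitted values of genes at 0 in a class are no bounds; all 45 pan-astrocyte genes lie above 0 against all other barcodes, and the early and heat shock list lies below 0 against OPCs (median -2.39).

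Most intermediate filament and reactive genes had too few UMIs to be tested, and Gfap was at a low level in these astrocytes. Of 41 genes on the list 39 were in the tables and 13 had enough UMIs to be tested against all other barcodes, of which 9 were higher and 2 lower. Gfap, the filament protein used as a marker of reactive and white matter astrocytes, stood at 11.5, 37.2, 42.5 and 70.5 CPM. It held 16 UMIs in 12 of 427 cells, or 2.81% (exact binomial 95% interval 1.46 to 4.86), and all 12 were among the 394. Oligodendrocytes and OPCs had no Gfap UMI and all other barcodes had 1, a ratio of 412 (95% counting interval 64 to 17288). The 16 UMIs were spread over the libraries as 2, 3, 5 and 6, too few to divide the astrocytes by Gfap. Vim stood at 120.3, 24.8, 17 and 212 CPM (log2 fold change 2.35, SE 0.39, adjusted p = 1.88e-06), with libraries 1 and 4 well above the others. The complement gene C4b stood at 28.6, 12.4, 34 and 118 CPM (log2 fold change 5.11, SE 0.54, adjusted p = 4.20e-11), and library 4 was the highest. S100b, a calcium-binding protein of astrocytes and oligodendrocytes, stood at 281, 260.3, 281 and 306 CPM and was higher than in all other barcodes (log2 fold change 2.09, SE 0.23, adjusted p = 8.93e-11). The log2 fold change was -0.47 (SE 0.21) against oligodendrocytes (adjusted p = 0.057) and -0.36 (SE 0.26) against OPCs (adjusted p = 0.31).

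Hormone genes included higher ones of thyroid hormone handling, while the summed counts of the glucocorticoid receptor gene did not pass the test in any comparison. Nr3c1, which encodes the glucocorticoid receptor, stood at 223, 260.3, 289 and 223 CPM against 211, 222, 201 and 191 CPM in all other barcodes (log2 fold change 0.29, SE 0.23, adjusted p = 0.31). Its log2 fold changes against oligodendrocytes and OPCs were -0.20 (SE 0.21) and -0.28 (SE 0.27), with adjusted p-values of 0.47 and 0.44. At 500 UMIs per cell the share with a Nr3c1 UMI was 10.5% ± 1.33 in astrocytes and 19.2% ± 3.64 in OPCs (SD, n = 4; 18.7% and 39.3% unthinned), and the libraries, 8.90% to 12.0% against 14.6% to 22.4%, did not overlap. In oligodendrocytes the share was 12.9% ± 1.73 and in neuron barcodes 9.27% ± 0.375. Tsc22d3, a glucocorticoid-induced gene, stood at 304, 298, 408 and 482 CPM and was higher than in all other barcodes (log2 fold change 1.96, SE 0.22, adjusted p = 2.07e-10). Sgk1, another glucocorticoid-induced gene, held 3 UMIs and was 11.04-fold lower (95% counting interval 3.76 to 53.6) than in all other barcodes. The mineralocorticoid receptor gene Nr3c2 held 15 UMIs and its call was weak (log2 fold change 1.298, SE 0.50, adjusted p = 0.032, higher in 3 of 4 libraries). It was lost with DESeq2 and when library 1, 2 or 3 was left out. Slco1c1, a thyroid hormone transporter, stood at 338, 583, 604 and 388 CPM (log2 fold change 4.64, SE 0.26, adjusted p = 4.59e-21), and Dio2, which converts thyroxine to the active hormone, at 34.4, 86.8, 145 and 141 CPM (log2 fold change 5.28, SE 0.43, adjusted p = 6.15e-15). The thyroid hormone receptor gene Thra was lower (log2 fold change -0.70, SE 0.23, adjusted p = 0.013) and the hormone-responsive factor gene Klf9 higher (log2 fold change 0.83, SE 0.22, adjusted p = 0.0021). Of the whole list, 11 of 23 were higher and 4 lower than in all other barcodes (median 0.39), beside 17.5% and 25% of all genes tested. Against oligodendrocytes 7 of 12 were higher and 3 lower, beside 26.6% and 22.5%, so the list was lower about as often as all genes. Against OPCs 6 of 8 were higher, beside 18.2%.

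Pnoc encodes prepronociceptin, the peptide precursor that names the neurons of the study, and Oprl1 its receptor. Pnoc stood at 51.5, 0, 0 and 0 CPM in astrocytes, 9 UMIs in 2 cells of library 1, and at 137, 122, 99.3 and 116 CPM in all other barcodes (log2 fold change -2.68, SE 0.45, adjusted p = 2.84e-06). In the 394 astrocytes 1 Pnoc UMI was left. Oprl1 stood at 22.9, 0, 8.5 and 11.8 CPM, 6 UMIs in 4 cells, against 53.3 ± 10.5 CPM (log2 fold change -1.95, SE 0.53, adjusted p = 0.0023), and it had 0 UMIs in the 394. The kappa opioid receptor gene Oprk1 had 0 UMIs in all 427.

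Early response genes depended on which barcodes were counted as astrocytes. Fos stood at 498, 223, 451 and 459 CPM (mean 408 ± 125, SD, n = 4), Jun at 367, 384, 833 and 564 CPM and Egr1 at 281, 211, 459 and 588 CPM. In the 394 astrocytes the means were 136 ± 87.7, 102 ± 63.6 and 102 ± 37.6 CPM. The 22 members with OPC gene UMIs held 432 UMIs of these 3 genes, with 3 or more in 21 of the 22. The other 405 members held 176 UMIs, with 3 or more in 14 cells, and 119 of 150 OPCs had 3 or more. Fos was higher than in all other barcodes in the 427 (log2 fold change 1.36, SE 0.24, adjusted p = 7.19e-06) and had a log2 fold change of -0.36, adjusted p = 0.23, in the 394. Of the list of early and heat shock genes, 9 of 26 were higher and 6 lower than in all other barcodes with all members, against 17.5% and 25% of all genes tested. In the 394, 3 were higher and 11 lower, against 18.5% and 31.3%. Against OPCs the direction did not depend on these barcodes, with 9 of 10 lower in both cases. Fos, Jun and Egr1 were lower than in OPCs, with log2 fold changes of -2.68 (SE 0.25), -2.94 (SE 0.23) and -2.29 (SE 0.23).

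The genes with the largest differences from the other glia were mostly absent from one class. Opalin, a membrane protein gene of myelinating oligodendrocytes, had 0 UMIs in astrocytes and stood at 1319.9 ± 337 CPM in oligodendrocytes, at least 202-fold lower in astrocytes. Hapln2, a link protein gene of nodes of Ranvier, also had 0 UMIs, at least 51.2-fold lower. On the other side, Slc39a12, a zinc transporter gene, stood at 212, 347, 536 and 306 CPM with no UMI in oligodendrocytes or OPCs (at least 175-fold and at least 23.5-fold higher). Pla2g7, which hydrolyses platelet-activating factor, had no UMI in oligodendrocytes (at least 307-fold higher). Cldn10, a claudin gene, stood at 1008, 1215, 714 and 705 CPM with 1 UMI in oligodendrocytes, a ratio of 1422 (95% counting interval 254 to 56303). Against OPCs, Sdc4, a heparan sulphate proteoglycan gene, and Plcd4, a phospholipase C gene, had no UMI in OPCs (at least 50.3-fold and at least 46.9-fold higher). The largest differences towards OPCs were in Bcas1, a marker of newly forming oligodendrocytes, at 1031 ± 293 against 46.7 ± 52.4 CPM in astrocytes (log2 fold change -4.39, SE 0.40, adjusted p = 8.65e-09), and in Emid1, Prkcq, Matn4 and Shc4, with log2 fold changes of -4.19, -3.65, -3.47 and -3.35.

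Astrocytes varied among themselves in Agt and Crym. Crym encodes mu-crystallin, a protein that binds thyroid hormone in the cytosol and marks a population of astrocytes in the striatum. Agt had a UMI in 179 of 427 astrocytes (51, 32, 64 and 32 by library, or 41.1%, 36.4%, 55.2% and 32.3%), and Crym in 86 (20.1%). At 500 UMIs per cell the share with Agt was 31.1% ± 7.26 in astrocytes (41.9% unthinned), against 0.124% in oligodendrocytes, 0 in OPCs and 0.240% in neuron barcodes. The share with Crym was 14.5% ± 5.53 against 0.0534% in oligodendrocytes and 2.84% in neuron barcodes (10.004% unthinned). Both genes were therefore detected above the share in oligodendrocytes, whose median depth was 1387.5 UMIs against 835 in astrocytes. A barcode without a UMI of a gene at this depth may still have expressed it.

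Cells with Crym were mostly cells without Agt. Crym had a UMI in 10 of the 179 Agt-positive astrocytes (3, 0, 2 and 5 by library) and in 76 of the 248 Agt-negative ones (26, 14, 13 and 23), and 172 cells had neither. At 500 UMIs per cell the share with Crym was 3.05%, 0%, 1.69% and 13.0% in the Agt-positive cells of libraries 1 to 4. In the Agt-negative cells it was 24.1%, 19.0%, 17.2% and 25.8%. Every library was lower on the Agt-positive side and the groups did not overlap, with a mean difference of -17.1 ± 3.68 percentage points (SD, n = 4; two-sided exact sign-flip permutation p = 0.13, the smallest that 4 libraries allow). Median depth was 829 UMIs in Agt-positive and 836.5 in Agt-negative cells. Crym spans 120186380 to 120202111 on the minus strand of chromosome 7.

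Summed UMIs of Agt-positive and Agt-negative cells were then compared across the 4 libraries by edgeR's quasi-likelihood test with the library as a block. Agt itself is a description of the split. The genes of the rule, which chose the cells but did not divide them, stayed in: Ntsr2, Aqp4 and Meg3 are among the calls with all members, and Slc1a2 among those in the 394. Of 833 genes tested 100 were called (12%), 48 higher (5.76%) and 52 lower (6.24%) in Agt-positive cells. Leaving out library 1 gave 43 calls and leaving out library 4 gave 55. In the 394 astrocytes 24 of 650 genes were called (3.69%), 11 higher (1.69%) and 13 lower (2%). Of the 33 barcodes set aside, 31 were Agt-negative. Jun, Egr1, Fos, Olig1 and Gabarapl1 had log2 fold changes of -4.80, -4.38, -3.70, -2.08 and -2.03 with all 427 and were under the count filter in the 394.

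The difference in Crym was larger without these barcodes. Crym stood at 128, 0, 63.4 and 373 CPM in Agt-positive and 626, 736, 422 and 722 CPM in Agt-negative cells, lower in each library (log2 fold change -2.33, SE 0.35, adjusted p = 5.84e-09). In the 394 the log2 fold change was -2.94, adjusted p = 3.05e-10. Itih3 went with Agt, at 950.2, 930.2, 1521 and 1203 CPM in Agt-positive and 225, 155, 257 and 328 CPM in Agt-negative cells, with no overlap between the groups (log2 fold change 2.19, SE 0.26, adjusted p = 3.19e-14, and 1.76, adjusted p = 6.01e-09, in the 394). Slc6a11 stood at 585, 586, 1489 and 1411 CPM against 150.2, 290.4, 605 and 394 CPM, higher in each library (log2 fold change 1.503, SE 0.26, adjusted p = 8.53e-07, and 1.08, adjusted p = 3.17e-04, in the 394). Crym, Itih3 and Slc6a11 stayed past the threshold in each alternative that was run, with adjusted p-values of at most 0.0063, 2.0e-05 and 0.037.

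All 11 genes higher in the 394 were also called higher with all members, and 8 of the 13 lower ones were called lower. Higher in both, beside Itih3 and Slc6a11, were among others Sparcl1, Pla2g7, Slc4a4, Ednrb, Lrig1, a membrane regulator of growth factor receptors (1.57, and 1.36 in the 394), and Atp13a4, a P-type ATPase gene (1.38 and 0.96). Fmo1, Fam184a, Car2 and Plcb1 were called with all members (1.52, 1.35, 1.31 and 1.28) and not in the 394, where Plcb1 was under the count filter. Sparc, Fgfr3, Slco1c1 and Dkk3 were chosen for description in this split after their values were seen. The matrix gene Sparc stood at 1845, 1998, 2551 and 2158 CPM against 759, 775, 825 and 1198 CPM (log2 fold change 1.25, SE 0.19, adjusted p = 5.86e-09, and 0.89, adjusted p = 4.15e-05, in the 394). Fgfr3 stood at 639.5, 896, 1378 and 1245 CPM against 234, 232, 642 and 705 CPM (log2 fold change 1.22, SE 0.25, adjusted p = 4.55e-05, and 0.77, adjusted p = 0.016, in the 394). On the Agt-negative side, Slco1c1 stood at 409, 697, 789 and 410.1 CPM against 183, 379, 444 and 332 CPM in Agt-positive cells (log2 fold change -0.85, SE 0.29, adjusted p = 0.035, and -1.29, adjusted p = 2.81e-04, in the 394). Dkk3, a secreted protein gene of the Dickkopf family, stood at 200.2, 329, 238 and 427 CPM against 91.4, 0, 127 and 249 CPM (log2 fold change -1.33, SE 0.39, adjusted p = 0.012, and -1.64, adjusted p = 0.0017, in the 394).

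Of 42 pan-astrocyte genes, 13 were higher and none lower in Agt-positive cells with all members, and 4 were higher and 1 lower in the 394. Mfge8 had a log2 fold change of 0.26 (SE 0.16), adjusted p = 0.33, with all members and -0.11, adjusted p = 0.75, in the 394. Nr3c1 stood at 0.04 (SE 0.34), adjusted p = 0.95. Of 8 metallothionein and oxidative defence genes 0 were called with all members and 1 in the 394, against 12% and 3.69% of all genes tested. Gjb6 was called with all members (log2 fold change 0.85, SE 0.25, adjusted p = 0.012) and not in the 394 (0.46, adjusted p = 0.27). Of the 12 cells with Gfap, 7 had Agt.

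**Figure D4:**
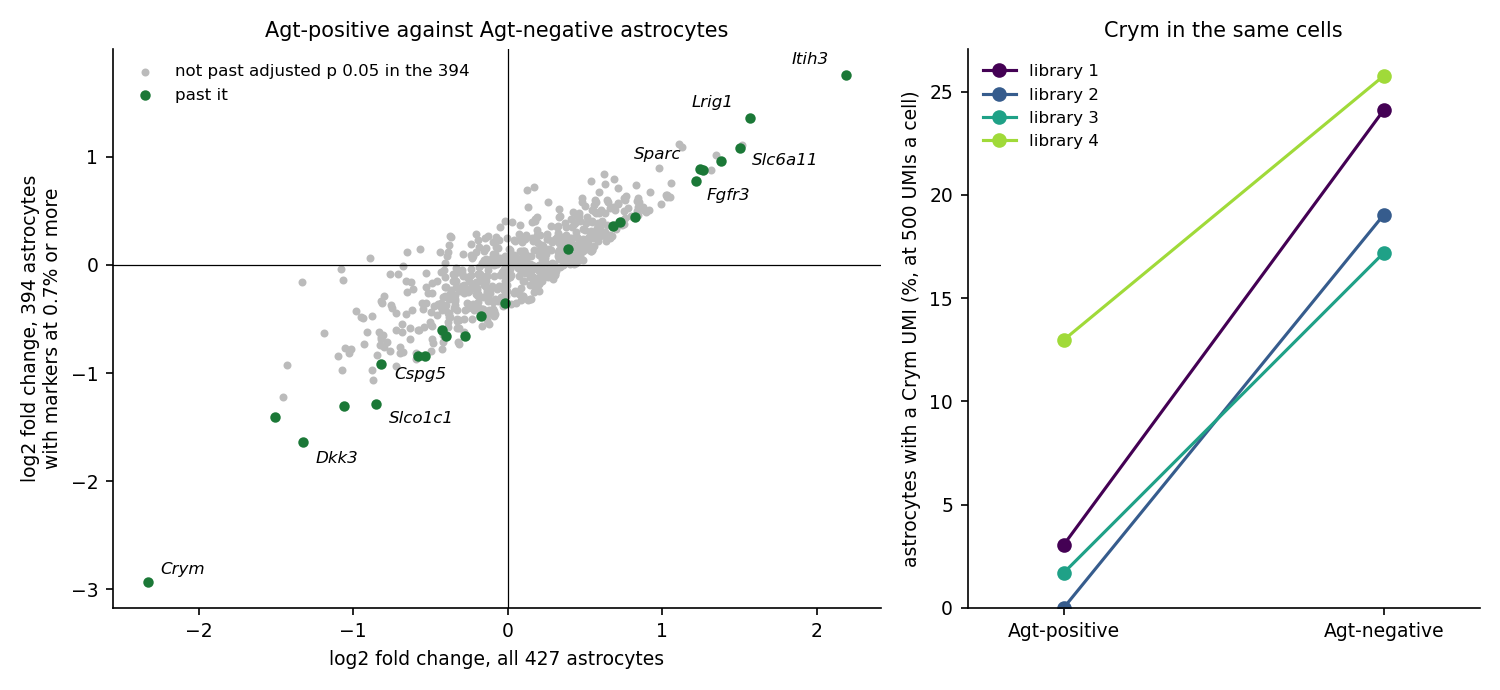
Left, log2 fold change of each gene between Agt-positive and Agt-negative astrocytes in all 427 cells (horizontal) and in the 394 with markers of at least 0.7% of UMIs (vertical), with genes past an adjusted p of 0.05 in the 394 in green; Itih3 and Crym lie at opposite ends. Right, share of cells with a Crym UMI at 500 UMIs per cell in each library, with the 4 Agt-positive values between 0% and 13.0% and the Agt-negative values between 17.2% and 25.8%.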

How the data were processed

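The deposited files hold counts of UMIs per gene and cell barcode, 1 table per library, which the authors made from Drop-seq reads; bcl2fastq 2.18.0.12, STAR 2.4.2a and Picard 2.2.4 and the builds mm10 and GRCm38 are named per the submitters' processing notes. The annotation, the strand and the choice of barcodes were not given in the sources used here. The tables held 10200 barcodes, 20136 genes and 5652342, 2762405, 2640399 and 2962880 UMIs in libraries 1 to 4, and 93.5% of gene names matched GENCODE vM21. The astrocytes of each library held 174603, 80671, 117643 and 85055 UMIs, which limits precision for low genes.

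Counts were summed per class and library and fitted across all genes with edgeR 4.0.16 in R 4.3.3 (TMM scaling, filterByExpr, quasi-likelihood test, Benjamini-Hochberg adjustment), with the library as a block because both classes of a comparison come from the same library. DESeq2 1.42.0 was an alternative. Python 3.11.15, scipy 1.17.1 and, for Scrublet, scanpy 1.11.5 were used for the rest. A floor of 3 counts stands for a class with 0 UMIs. Shares of cells were thinned to 500 UMIs per cell. The fit was tested on simulated data, with 200 genes changed 2-fold: it recovered 28.5% of them against all other barcodes (9917 genes), 47.5% against oligodendrocytes (4084 genes), 50% against OPCs (1579 genes) and 66.5% in the Agt split (755 genes). In the same order, 5%, 0%, 4.76% and 5% of the calls were wrong. Counts were drawn around the mean of both classes of a library, with the same dispersion for every gene. The simulation therefore lacked the spread of each gene and the large class differences of the data.

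The members and lists were chosen with earlier results of these data known. Named genes were, in each list, up to 4 with the largest log2 fold change among those past an adjusted p of 0.05, changed the same way in all 4 libraries and with at least 20 UMIs in astrocytes, plus the 8 largest rises and 5 largest falls among all genes (8 each way in the Agt split), and Gfap, Agt, Mfge8, Nr3c1, Nr3c2, Pnoc and Oprl1. Not all genes so named are described, and some list members are counted but not reported here. The sample titles number the libraries as Drop-seq batches. Apart from that no label says that they are more than separate pools. With the library as a block, the edgeR p-values set the difference between classes within a library against its spread over these 4 libraries. They do not measure the spread in level between libraries. Alternatives were other filters, thinning, scaling, tools, class borders, no block and leaving out each library.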

Additional observations from a re-analysis of the deposited data

Results flagged for a closer look

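For 6 of 105 sets of 4 astrocyte values, 1 library lay far from the others relative to their whole range, and about 1 set in 20, or 5.25 sets, would do so by chance. Agt stood at 1471 CPM in library 3 and between 653 and 764 CPM in the others. Mlc1 was at 855 CPM in library 2 against 570 to 584 CPM. Papss2, a sulphate-activating enzyme gene, was at 124 CPM in library 2 against 58.8 to 63.0 CPM, and Phka1 at 372 CPM in library 2 against 149 to 187 CPM. Slc25a18, a mitochondrial glutamate carrier gene, was at 97.4 CPM in library 1 against 136 to 141 CPM. Slc27a1, a fatty acid transporter gene, was at 195 CPM in library 1 against 332 to 359 CPM, and library 1 had 35.8% of its astrocyte UMIs in members with markers under 0.7%.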

How the results depend on the processing

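Of the single-gene values under the alternatives, 2700 kept their direction and side of the threshold, 40 kept their direction and were no longer past it, and 12 reversed. All 837 values against oligodendrocytes and 732 against OPCs were among the 2700. These are values of the named genes, most of them chosen for large changes past the threshold in the same direction in all 4 libraries. That choice favours values that stay the same, and a gene under the count filter of a fit has no value there. The share of astrocytes was 5.13% with a minimum of 600 genes and 9.23% to 10.999% when 1 library was left out. The calls against all other barcodes were 2445 with 600 genes, 2385 with a mitochondrial limit of 5%, 2286 with cells thinned to 500 UMIs and 2028 without neuron barcodes. Against oligodendrocytes these counts were 3474 without a count filter, 1308 with 600 genes, 1008 with the 5% limit and 991 thinned, and against OPCs 1071, 148, 214 and 238. The Agt split gave 32 calls with DESeq2, 49 with at least 6 marker UMIs, 20 thinned and 24 with markers of at least 0.7%. Without the replicate block it gave 9, and the other comparisons gave 3968, 1994 and 422. Leaving out 1 library gave 3251 to 4066, 1994 to 2054, 409 to 557 and 43 to 94 calls. The Crym difference was -19.9 percentage points in the 394 cells. Fewer cells, UMIs or genes enter several of these fits, and the cause was otherwise not tested.

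The reversed values were those of 4 genes. Against all other barcodes Fos was at -0.11 thinned, -0.36 without neuron barcodes and -0.36 with markers of at least 0.7%, Fosb at -0.53 with 6 marker UMIs, -0.40 without neuron barcodes and -2.55 with markers of at least 0.7%, and Nr3c1 at -0.0217 with the 5% limit and -0.24 without neuron barcodes. In the Agt split Mfge8 was at -0.11 with markers of at least 0.7%, and Nr3c1 at -0.0110 without a count filter and between -0.0314 and 0.174 without 1 library, negative without library 1 and library 4 (-0.0173). The cause was not tested. A split by Gfap was not run because no library had 10 positive cells.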
